A study of Mus musculus with 6 samples.

Results

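Single-library promoter regions are stretches within 1 kb of the transcription start site (TSS) of a protein-coding gene where H3K27ac enrichment was called in exactly 1 of 4 ChIP-seq libraries. The 4 peak lists were merged wherever peaks shared at least 1 bp, which gave 182956 regions, and 149471 of these held peaks of 1 list only. Of the latter, 5989 overlapped the promoter window of 1 of 21866 protein-coding genes and are described here. They made up 3.27% of all merged regions and 33.0% of the 18159 regions at promoters, beside 8994 promoter regions called in all 4 lists, 1618 in 3 lists and 1558 in 2 lists. The regions were chosen by the authors' calls, that is, by which libraries passed the peak threshold, so their number, pileup and call strength are descriptions, and no test is attached to them.

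The libraries came from B16 F10, a mouse melanoma cell line, plated sparsely at 100 cells per cm2 and harvested on day 5 of a model in which the cultures darken with time. Cells were sorted by side scatter, the light that intracellular particles deflect in a flow cytometer, into a low pigment (LP) and a high pigment (HP) population, with no further genetic or chemical treatment. LP and HP had 2 replicates each, and an IgG library of unsorted cells served the authors as background for each replicate number. The labels do not say whether the replicates were separate cultures, so the spread between them may be technical. Sorting by side scatter separates 1 line into fractions and does not isolate a second cell type.

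H3K27ac is acetylation of lysine 27 on histone H3, deposited by the acetyltransferases p300 and CBP and removed by deacetylases. It marks active promoters and enhancers, and at an active promoter it typically covers the nucleosomes on both sides of a nucleosome-poor start site. CpG-rich promoters, typical of housekeeping genes, often carry the mark in many tissues, whereas CpG-poor promoters tend to belong to tissue-restricted genes. In pigment cells, promoters of melanosome and melanin synthesis genes are known to carry it.

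The sequence at the summits, the positions of highest pileup, differed widely among these regions, and the sequences below show the range. Each is the summit with 100 bp on either side, from RefSeq GRCm38 (the mm10 assembly), plus strand, with CpG dinucleotides in capitals. The first 4 were the regions with the highest −log10 q-value in LP replicates 1 and 2 and HP replicates 1 and 2 among the windows searched. The search kept windows that touch no annotated untranslated region and are at most 50% repeat-masked, and it left out 1 autosome. It passes over stronger calls such as Zfyve26 and Sfi1.
Colec11 (chr12:28622500-28622700, LP replicate 1): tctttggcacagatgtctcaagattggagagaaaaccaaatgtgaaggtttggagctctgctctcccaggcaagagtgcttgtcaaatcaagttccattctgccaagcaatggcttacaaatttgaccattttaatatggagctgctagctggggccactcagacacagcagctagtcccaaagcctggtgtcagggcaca
Specc1 (chr11:61956967-61957167, LP replicate 2): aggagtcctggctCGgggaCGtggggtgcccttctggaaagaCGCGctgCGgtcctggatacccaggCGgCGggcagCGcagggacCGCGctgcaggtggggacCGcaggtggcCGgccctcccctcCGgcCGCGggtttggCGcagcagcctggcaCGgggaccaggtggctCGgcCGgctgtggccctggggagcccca
Mlkl (chr8:111338398-111338598, HP replicate 1): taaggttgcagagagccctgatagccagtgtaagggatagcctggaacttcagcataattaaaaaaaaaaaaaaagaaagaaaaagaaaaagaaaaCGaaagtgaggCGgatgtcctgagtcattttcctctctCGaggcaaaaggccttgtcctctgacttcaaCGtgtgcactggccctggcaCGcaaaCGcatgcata
Egr2 (chr10:67537544-67537744, HP replicate 2): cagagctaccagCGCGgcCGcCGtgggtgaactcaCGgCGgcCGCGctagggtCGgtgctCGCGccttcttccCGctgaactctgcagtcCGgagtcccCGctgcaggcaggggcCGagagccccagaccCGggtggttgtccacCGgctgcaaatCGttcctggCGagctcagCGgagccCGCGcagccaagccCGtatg
The next 4 stand for gene groups described further on: Pax6, a developmental transcription factor, and Krtap9-3, a hair keratin-associated protein, both called in LP replicate 2 only, Olfr1177-ps, an odorant receptor locus called in LP replicate 1 only, and Gm10717 in a repeat-masked cluster called in LP replicate 1 only.
Pax6 (chr2:105674810-105675010, LP replicate 2): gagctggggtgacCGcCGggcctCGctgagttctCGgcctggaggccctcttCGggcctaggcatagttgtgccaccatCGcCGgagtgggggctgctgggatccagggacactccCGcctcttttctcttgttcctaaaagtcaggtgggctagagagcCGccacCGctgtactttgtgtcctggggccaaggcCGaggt
Krtap9-3 (chr11:99597709-99597909, LP replicate 2): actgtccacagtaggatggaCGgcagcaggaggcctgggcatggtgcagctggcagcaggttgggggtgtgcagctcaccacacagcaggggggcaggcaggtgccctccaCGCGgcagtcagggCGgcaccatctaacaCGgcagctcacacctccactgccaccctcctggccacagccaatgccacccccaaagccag
Olfr1177-ps (chr2:88347236-88347436, LP replicate 1): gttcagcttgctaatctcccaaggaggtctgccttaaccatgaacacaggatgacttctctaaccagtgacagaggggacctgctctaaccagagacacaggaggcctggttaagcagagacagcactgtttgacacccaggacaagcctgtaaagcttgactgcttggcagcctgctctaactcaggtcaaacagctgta
Gm10717 (chr9:3029671-3029871, LP replicate 1): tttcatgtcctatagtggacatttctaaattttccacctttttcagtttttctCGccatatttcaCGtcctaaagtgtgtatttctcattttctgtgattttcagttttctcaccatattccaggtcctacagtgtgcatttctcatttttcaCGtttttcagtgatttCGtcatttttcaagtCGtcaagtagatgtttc
The windows at Specc1 and Egr2 held 19 and 23 CpG, with 75.6% and 70.6% G and C. Pax6 had 11 CpG, Mlkl 6, and Krtap9-3 and Gm10717 5 each. Colec11 and Olfr1177-ps had none, at 47.8% and 51.2% G and C. Colec11 encodes a collectin that binds sugars on microbes, Specc1 a coiled-coil cytoskeletal protein, Mlkl the pseudokinase that executes necroptosis, and Egr2 a zinc finger transcription factor of Schwann cells and the hindbrain. The Colec11 summit lay 660 bp downstream of its nearest TSS and the Specc1 summit 252 bp downstream, both in introns. The Mlkl summit lay 321 bp upstream, outside protein-coding transcripts, and the Egr2 summit lay 225 bp upstream of 1 TSS and in an intron of another transcript.

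The libraries did not start equal. They held 11467942 to 15353176 fragments and 57942 to 71529 peaks. HP replicate 2 stood apart in signal: at the promoter regions of all 4 lists its median scaled pileup, the number of fragments over the summit per 1000000 fragments of the library, was 8.07, against 4.88 in HP replicate 1 and 3.23 and 3.26 in the LP replicates. LP replicate 2 had the longest fragments, with a mean of 217 bp against 167 to 192 bp in the others. As a check on the labelled cell type, 28 of 36 pigmentation genes had a promoter region of all 4 lists, as did all 30 proliferation genes, and none of 32 markers of other cell types did.

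LP replicate 1 contributed 829 single-library promoter regions, LP replicate 2 1879, HP replicate 1 1264 and HP replicate 2 2017. The populations overlapped, and both replicates numbered 2 had more than both numbered 1. Per 1000000 fragments the counts were 72.3 and 122 in LP against 110 and 141 in HP. The mean was 1354 ± 742 in LP against 1640.5 ± 532 in HP (SD, n = 2), a log2 ratio of 0.28. The number of calls in a list also depends on the others: without HP replicate 2, HP replicate 1 had 2764 such regions in place of 1264, and without LP replicate 2 it had 1371. Within replicate numbers, which pair libraries made with equal DNA and the same IgG control, the mean log2 ratio was 0.36. The log2 ratio was −0.14 without LP replicate 1, 1.23 without LP replicate 2, 1.00 without HP replicate 1 and 0.56 without HP replicate 2, so single libraries set its size and its sign. These regions were 2.08%, 4.77%, 4.03% and 5.18% of all regions called in that library alone, in the same order of libraries. Over all 4 libraries 4.01% of single-library regions lay at promoters, whose windows cover 2.37% of the assembled chromosomes, against 74.4% of the regions of all 4 lists.

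The libraries also differed in what else was called at the gene, counting other regions at the promoter of any of its TSSs. In HP, 72.5% (replicate 1, 916 of 1264, 95% Wilson interval 69.9 to 74.9) and 69.6% (replicate 2, 1404 of 2017, 67.6 to 71.6) of the single-library regions belonged to genes with another promoter region called in 2 or more lists. In LP this held for 53.0% (replicate 1, 439 of 829, 49.6 to 56.3) and 39.4% (replicate 2, 740 of 1879, 37.2 to 41.6). Counted per gene, 52.9% of all 21866 protein-coding genes had a promoter region of 2 or more lists. LP replicate 1 stood near that share, LP replicate 2 under it and both HP replicates above it, but the units differ, regions against genes. Nor is the number of TSSs matched. Of the genes with 1 TSS 15.6% had a single-library region, and of those with 7 or more 52.5%. Both HP values lay above both LP values, with means of 71.0% ± 2.02 and 46.2% ± 9.60 (SD, n = 2 each). These shares come from the same calls that chose the regions, so they too are descriptions without a test. The intervals cover counting error only. The 2 populations stayed apart under each of 11 other settings that kept all 4 lists, although the level itself moved with the window and with the merging distance. Since a gene can have start sites far apart, the share was also counted within the window of the same TSS. It was then 28.5% (236 of 829, 95% Wilson interval 25.5 to 31.6) and 16.8% (316 of 1879, 15.2 to 18.6) for LP replicates 1 and 2, and 52.6% (665 of 1264, 49.9 to 55.4) and 46.7% (942 of 2017, 44.5 to 48.9) for HP replicates 1 and 2, so HP again lay above LP at a lower level. No such share was counted over all TSS windows, so these values compare the libraries only.

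Genes with no other promoter region gave the reverse order. They held 294 (35.5%) of the single-library regions of LP replicate 1 and 841 (44.8%) of LP replicate 2, against 236 (18.7%) and 382 (18.9%) in the HP replicates. Counted per gene, 8143 of all 21866 protein-coding genes had no promoter region at all. The remaining regions, 11.6% and 15.9% in LP against 8.86% and 11.5% in HP, were at genes with other single-library regions only. A promoter region of all 4 lists was present at the gene in 42.7% and 29.9% of the cases in LP and in 57.5% and 58.2% in HP. Counted per gene and not matched in TSSs, it was present at 44.5% of all protein-coding genes. Within the window of the same TSS, again without a share over all TSS windows, this held for 20.4% and 9.74% in LP, and for 37.9% and 31.6% in HP.

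**Figure D1:**
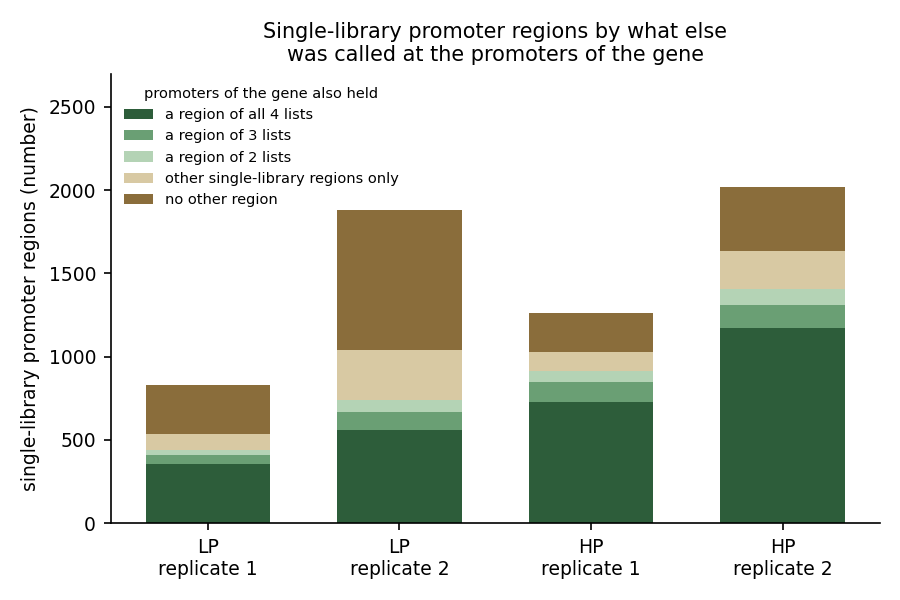
Number of single-library promoter regions in each library, stacked by the most widely called other region at any promoter of the gene. No error bar applies to a single count per library. The brown blocks, genes with no other promoter region, hold 841 regions in LP replicate 2 and 236 to 382 in the other 3 libraries, and the dark green blocks, genes with a promoter region of all 4 lists, hold 354 and 561 in LP against 727 and 1173 in HP.

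Distance to the shared region followed the same division. Within 500 bp of a region of 2 or more lists lay 43.6% and 38.3% of the HP regions, and 22.6% and 12.6% of the LP regions. The share of all promoters this close to such a region was not counted. For those whose gene had such a region, the median distance to the nearest one on the chromosome was 358.5 and 429.5 bp in HP and 809 and 2428.5 bp in LP. When peaks within 500 bp were merged, the count fell to 3622 and the log2 ratio of HP to LP became −0.37. At that setting LP replicate 2 had the most single-library promoter regions and HP replicate 1 the fewest.

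Single-library promoter regions were shallow. The median pileup was 7 fragments for LP replicate 1 and 12 for LP replicate 2, and 8 and 10 for HP. At most 10 fragments were seen in 85.6%, 38.5%, 73.7% and 50.2% of the regions. On the scaled pileup the medians were 0.610 and 0.782 in LP against 0.697 and 0.702 in HP, close to one another. The regions of all 4 lists were 5.29 and 4.17 times higher in the LP libraries and 7.00 and 11.5 times higher in the HP libraries, by the ratio of medians. Only 12 single-library regions of LP replicate 1 and 4 of LP replicate 2 exceeded the median of the regions of all 4 lists in their own library, and none did in HP. The depth behind these values is 5 to 20 fragments for most of them, and a list holds no value where the threshold was not reached, so the level in the other 3 libraries is unknown. In a bulk library, fewer cells with the mark and less of it per cell cannot be told apart.

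**Figure D2:**
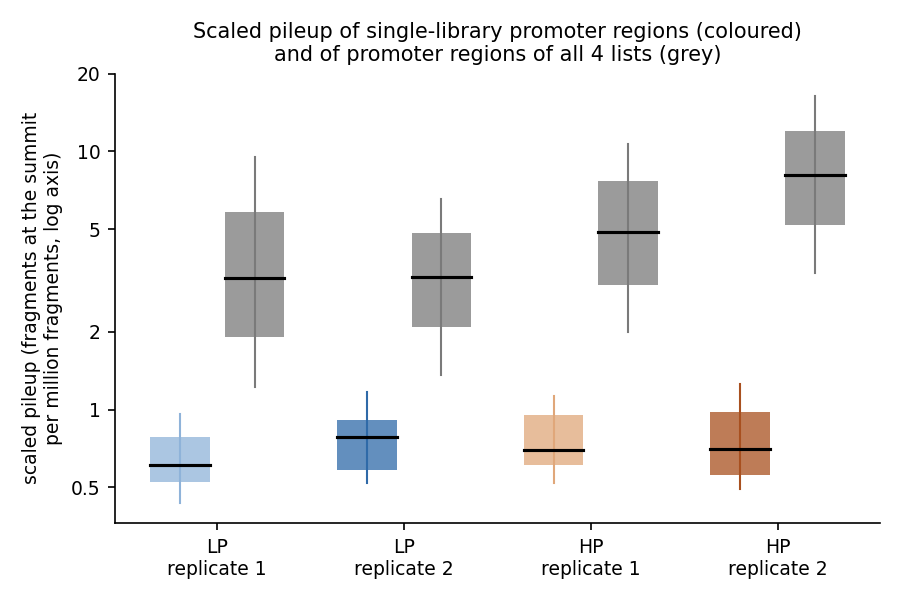
Scaled pileup (fragments over the summit per 1000000 fragments of the library, log axis) of single-library promoter regions (coloured) and of the 8994 promoter regions of all 4 lists in the same library (grey). Boxes span the 25th to 75th percentile, black lines are medians and whiskers run from the 10th to the 90th percentile. The coloured medians lie between 0.610 and 0.782, and the grey medians rise from 3.23 in LP replicate 1 to 8.07 in HP replicate 2.

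Call strength differed most for HP replicate 2. There 246 regions (12.2%) had a −log10 q-value of at least 10, against 18 (2.17%) in LP replicate 1, 76 (4.04%) in LP replicate 2 and 42 (3.32%) in HP replicate 1. At the weak end, 28.6% of the LP replicate 1 regions had a −log10 q-value of at most 2, and 13.9%, 14.9% and 10.8% in the other libraries. The weakest single-library regions, just inside the authors' q-value of 0.05, were at Rbp2 (LP replicate 1, −log10 q-value 1.30, pileup 5), Trps1 (LP replicate 2, 1.30, pileup 8), Mettl23 (HP replicate 1, 1.32, pileup 5) and Vdac1 (HP replicate 2, 1.32, pileup 5). Just outside the rule were regions that a second list also held, as at Ndrg1, Mad2l2, Mrpl54 and Rgs12, where the second call had a −log10 q-value of 1.51, 1.36, 1.31 and 1.30. On position, 584 of the regions overlapped only the outer 100 bp of the window, and 566 further single-library regions overlapped only the 100 bp beyond it.

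HP replicate 2 had the highest fold enrichments, while the highest pileups were in LP replicate 1. Zfyve26, which encodes a protein needed to re-form lysosomes, had a pileup of 55 and a fold enrichment of 27.5 over the local background at its summit 134 bp downstream of the TSS, and Egr2 had a pileup of 62 and a fold enrichment of 22.2. Next to the Zfyve26 region, 340 bp away, lay a region called in 3 lists, and 254 bp from the Egr2 region lay 1 called in 2 lists. Tpr, a nuclear pore basket protein, had a pileup of 44 in an intron 1113 bp downstream of its nearest TSS, 203 bp from a shared region. Coa4, a cytochrome c oxidase assembly factor, had 53, and Elp3, the catalytic subunit of Elongator, had 38, with no region of 2 or more lists at either promoter.

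In HP replicate 1 the strongest regions were at Mlkl (pileup 20, fold enrichment 11.7), Rbms2, an RNA-binding protein (19, 11.1), B3gnt7, a glycosyltransferase (30, 7.68), Tfdp2, a dimerization partner of E2F (18, 10.6), and Ncald, a neuronal calcium sensor (21, 8.95). B3gnt7 had the highest pileup of the library and no other promoter region at the gene. Tfdp2 had its summit 2 bp from a TSS and 165 bp from a shared region, and at its promoters the strongest region of all 4 lists reached a scaled pileup of 3.84 and 3.97 in LP against 3.92 and 6.38 in HP. That region did not pass the test between HP and LP (limma, adjusted p = 0.545).

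In LP replicate 2 the strongest call, Sfi1, a centrin-binding protein of the centriole, combined a pileup of 380 with a fold enrichment of only 1.91. The other 4 were at Specc1 (pileup 30, fold enrichment 12.1), Krtap9-3 (30, 10.4), Fmnl1, a formin of blood cells (28, 9.89), and 4933411K16Rik (27, 9.96). Krtap9-3, Fmnl1 and 4933411K16Rik had no other region at their promoters, and their summits lay in coding exons. Specc1 had a region of all 4 lists at another of its promoters.

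In LP replicate 1 the 5 strongest calls were Gm10717, Gm10720, Gm17535, Gm10715 and Gm10721, predicted genes at the start of chromosome 9. They belonged to 8 single-library regions between positions 3012170 and 3037442, with pileups of 505 to 2809, fold enrichments of 1.41 to 2.07 and 90.05% to 100% of their bases repeat-masked. All 4 single-library regions on the mitochondrial genome, at mt-Atp8, mt-Atp6, mt-Co3 and mt-Nd4, were also from LP replicate 1, with pileups of 96 to 124. Together these 12 are the regions of that library above the median of the regions of all 4 lists. Reads in repeats such as those of the chromosome 9 cluster can map to several copies, so those positions are uncertain. The mitochondrial regions had fold enrichments of 1.70 to 2.21, and what produced these calls was not tested.

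The regions of all 4 lists at the promoters of these genes were not part of the choice, so their level could be tested between HP and LP. limma on the log2 scaled pileup called 485 of 12084 regions of all 4 lists higher in HP and 0 lower (4.01%, adjusted p at most 0.05), with a median log2 difference of 0.92. All neighbouring regions named here had the same SE, 0.54, so among them a call followed the size of the log2 difference alone. Such a call does not measure the spread of a region's own replicates, and only 2 libraries per population stand behind it. At genes with single-library regions of LP the called share was 9 of 363 (2.48%) for replicate 1 and 17 of 574 (2.96%) for replicate 2, and at those of HP 29 of 764 (3.80%) and 35 of 1153 (3.04%). The shares lay on both sides of the 2.76% of all promoter regions of 4 lists, and all 4 were under the 4.01% of all regions tested. The median log2 differences, 0.88 and 0.91 at genes of LP regions and 0.88 and 0.91 at genes of HP regions, were close to the 0.89 of all promoter regions of 4 lists. The count of calls was 88 with the replicate block. Leaving out a library left its population without replicates, so only the effect size is given for these fits. Median log2 differences were 0.96 and 0.90 without LP replicates 1 and 2, and 1.27 and 0.60 without HP replicates 1 and 2. At an unadjusted p below 0.05 the limma fit of all libraries had 4374 regions. The count of calls was 0, with 452 at an unadjusted p below 0.05, after centring each library on its median, when the median log2 difference was −0.09.

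At a gene with a single-library region, the promoter region of all 4 lists was highest in that same library about as often as at other promoters. It had its highest scaled pileup in LP replicate 1 in 1.10% of the 363 regions at genes of LP replicate 1 calls, against 1.49% of all promoter regions of 4 lists, and in HP replicate 2 in 86.8% of the 1153 at genes of HP replicate 2 calls, against 86.9%. With each library centred on its median the 4 shares were 43.3%, 16.2%, 18.8% and 21.9%, beside 43.2%, 16.8%, 20.2% and 19.8% of all. In the library of the call, the strongest region of all 4 lists at the gene was higher than the single-library region by a median ratio of 4.95 and 4.50 in LP against 6.55 and 10.9 in HP. The single-library region was the higher of the pair in 9, 4, 4 and 1 cases.

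Position relative to the TSS differed between these regions and the widely called ones. By the rule a single-library region cannot overlap a shared one. The promoter regions of all 4 lists had a median length of 1588 bp. Where such a region covers the TSS, single-library summits are kept away from it, so part of the contrasts below follows from the rule. The summit lay within 250 bp of a TSS in 22.2% (LP replicate 1), 39.8% (LP replicate 2), 19.7% (HP replicate 1) and 26.4% (HP replicate 2), and in 72.8% of the promoter regions of all 4 lists. The regions of all 4 lists peaked downstream of the TSS, with a median summit at 145 bp, and 18.9% had their summit upstream. Of the single-library regions 47.8% lay upstream. Summits were closer to the TSS at genes with no other promoter region, where within 250 bp lay 28.6% and 49.1% of such regions in LP against 35.2% and 47.6% in HP, against 17.3%, 27.03%, 14.2% and 18.7% of those at genes with a shared region. By annotation, 48.9% of the summits fell in introns, 25.4% outside protein-coding transcripts, 13.9% in coding exons and 11.8% in untranslated regions. Coding exons held 20.8% in LP replicate 2 and 7.67% to 12.9% in the other libraries.

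**Figure D3:**
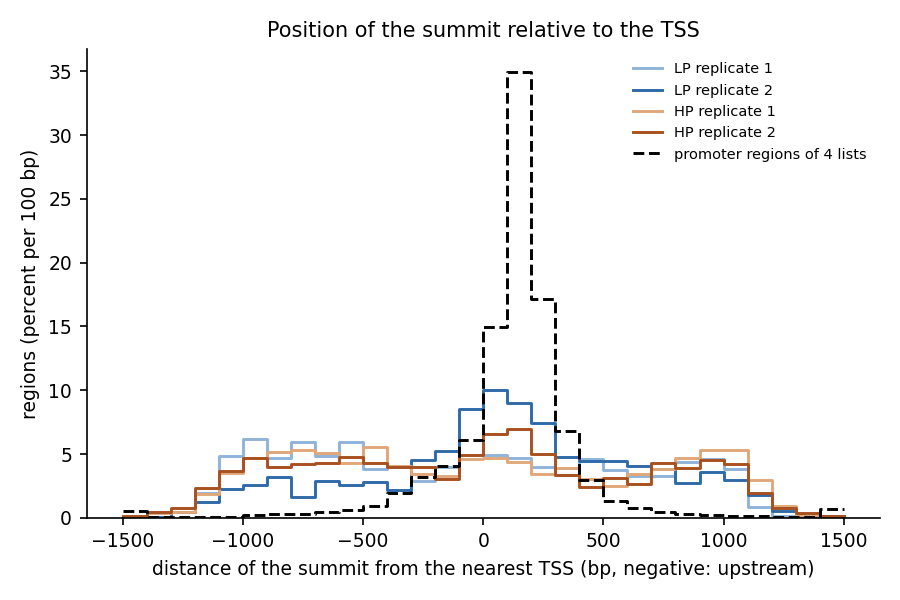
Distance of the summit from the nearest protein-coding TSS (x axis, bp, negative values upstream, distances capped at the ends of the axis), as the percent of regions per 100 bp, for the 4 sets of single-library promoter regions and, dashed, the promoter regions of all 4 lists. The dashed line peaks just downstream of the TSS, where LP replicate 2 and HP replicate 2 also have their highest bin, at 10.0% and 6.94%, and the sets of LP replicate 1 and HP replicate 1 are spread over the window.

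The base composition at the summits separated the libraries. Median G and C within 100 bp of the summit was 45.8% in LP replicate 1, 58.2% in LP replicate 2, 48.8% in HP replicate 1 and 52.2% in HP replicate 2, against 70.1% in promoter regions of all 4 lists and 58.7% around every protein-coding TSS. The order was the same for regions that each library alone had called outside promoters, at 42.3%, 49.3%, 45.8% and 48.3%. It was not the order of the populations, since LP replicate 2 was the highest and LP replicate 1 the lowest. The median number of CpG was 2, 6, 3 and 4, against 20 in the regions of all 4 lists, and 21.2%, 5.96%, 12.8% and 7.98% of the windows had none.

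Among genes with no other promoter region the gap was wider. Median G and C was 45.3% and 63.2% in LP against 49.8% and 56.7% in HP. A CpG observed-to-expected ratio of at least 0.6 over the 1001 bp around the TSS was found for 42.6% of these promoters in LP replicate 2, and for 9.18% in LP replicate 1, 7.63% in HP replicate 1 and 17.5% in HP replicate 2. The fragment length moved with it, being 217 bp in LP replicate 2 and 167 bp in LP replicate 1, and its part was not tested.

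**Figure D4:**
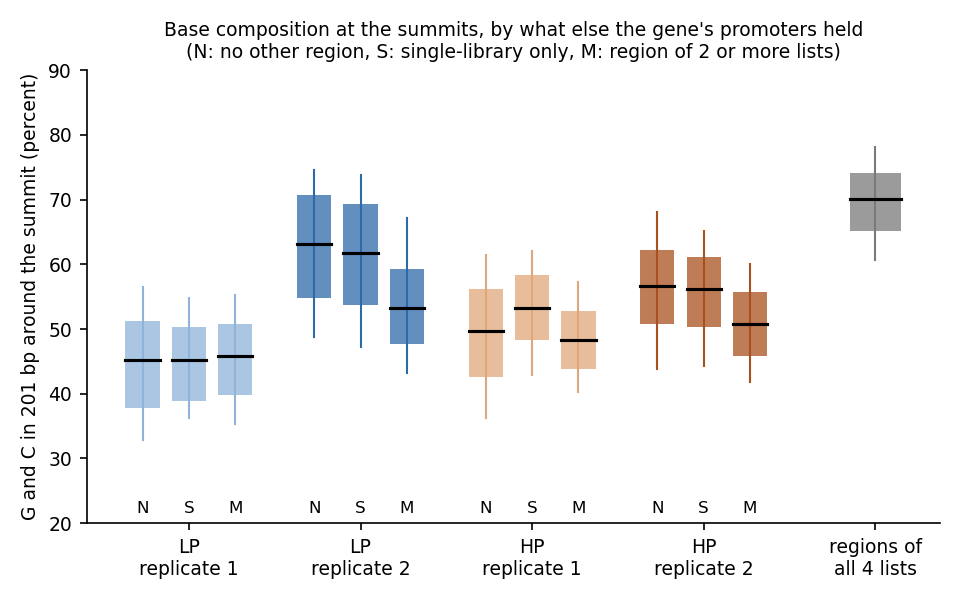
G and C within 100 bp of the summit (percent) for single-library promoter regions of each library, split by what else the promoters of the gene held, and for promoter regions of all 4 lists (grey). Boxes span the 25th to 75th percentile, black lines are medians and whiskers run from the 10th to the 90th percentile. LP replicate 2 regions at genes with no other promoter region have a median of 63.2%, and those of LP replicate 1 45.3%.

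Short motifs were searched on both strands. GGGCGG, the core of the Sp1 GC box, was present in 5.31%, 25.3%, 6.88% and 12.1% of the windows, against 51.8% of the regions of all 4 lists and 37.4% of windows of the same length around every TSS. TATAAA, a core promoter element, was found in 12.3%, 4.20%, 10.2% and 6.396%, against 0.656% and 6.79%. TCATGTG, a form of the E-box that Mitf binds, occurred in 3.86%, 1.76%, 2.61% and 2.73%, against 0.5003% and 1.70%, and TCACGTG in 1.09%, 1.33%, 0.791% and 1.14%, against 1.12% and 2.90%. A match is a run of letters and not a bound site. More than 50% of the window was repeat-masked in 17.2%, 6.49%, 15.8% and 15.3% of the windows, against 0.5003% of the regions of all 4 lists.

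By gene, 5041 of 21866 protein-coding genes (23.1%) had a single-library promoter region, and for 2147 of them no other kind of region was called. The libraries marked 819 (3.75%), 1786 (8.17%), 1241 (5.68%) and 1904 (8.71%) genes. The share of these genes with single-library regions only was 47.1% and 60.5% in LP against 27.7% and 30.4% in HP. The 2 LP replicates had 79 such genes in common, 9.65% of those of replicate 1 and 4.42% of those of replicate 2, and the 2 HP replicates 200, or 16.1% and 10.5%. Between populations, LP replicate 2 and HP replicate 2 had 205 in common, or 11.5% and 10.8%. LP replicate 1 and HP replicate 2 had 101 (12.3% and 5.30%), more than the 2 LP replicates had. HP replicate 1 had 65 in common with LP replicate 1 (5.24% and 7.94%) and 125 with LP replicate 2 (10.1% and 7.00%). Of all genes LP replicate 2 marked 8.17%, near the 9.65% of the LP pair. HP replicate 2 marked 8.71%, under the 16.1% of the HP pair.

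Genes marked in several libraries had many start sites. Of the genes, 580 had single-library regions from 2 libraries, 63 from 3 and 1 from all 4. The median number of TSSs was 2 over all genes, 4 for genes marked in 2 libraries and 6 for genes marked in 3, and the share of genes with a single-library region rose from 15.6% with 1 TSS to 52.5% with 7 or more. Among the genes marked in 3 libraries, 61.9% had regions of different libraries within 500 bp of each other. Tns1, a focal adhesion protein with 11 TSSs, was the gene marked in all 4, with 5 regions of 7 to 13 fragments. The next 9 by summed −log10 q-value were Arhgef1, Chn1, Specc1, Wnk1, Arap1, Akap7, Shroom3, Plekhb1 and Scrn1, 3 libraries each. Arap1 had 8 such regions, 5 from HP replicate 2, 2 from HP replicate 1 and 1 from LP replicate 2.

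Of the 36 pigmentation genes, 7 (19.4%) had a single-library promoter region, near the 23.1% of all genes. Hps5, a subunit of the BLOC-2 complex that sends cargo to melanosomes, had 4, with pileups of 13 and 8 in LP replicate 1 and 11 and 11 in HP replicate 2. Oca2, the melanosomal anion channel component, had 1 of 10 in LP replicate 1 and 1 of 7 in HP replicate 1, and no region of 2 or more lists. Kit, the receptor of stem cell factor, had 1 of 13 fragments in LP replicate 2, and Ednrb, the endothelin receptor of melanoblasts, 1 of 5 in HP replicate 2. Neither had another region at its promoters, so for these 3 genes the window held single-library calls alone. Outside the Oca2 window, a region of 2 or more lists lay 658 bp from the HP replicate 1 region and 1446 bp from the LP replicate 1 region. For Kit and Ednrb the nearest such region lay 82095 and 40235 bp away.

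Mlph, the melanophilin that ties melanosomes to myosin Va, had a single-library region of 13 fragments in HP replicate 2 in a coding exon 499 bp downstream of a TSS. At another Mlph promoter, chr1:90914227-90919330, the region of all 4 lists reached a scaled pileup of 1.22 and 0.977 in LP against 2.70 and 6.17 in HP. Both HP values lay above both LP values, with a log2 difference of 1.90 ± 0.54 (SE). limma gave this same SE to every neighbouring region named here, so it is not the spread of the Mlph replicates themselves. The Mlph region passed the test (limma, adjusted p = 0.0405). It was not called with the replicate block (limma, adjusted p = 0.0539), nor after centring (limma, adjusted p = 0.9997). Leaving out a library left its population without replicates, so only log2 differences are given for these fits. They were 2.06 and 1.74 without LP replicates 1 and 2, and 2.50 and 1.31 without HP replicates 1 and 2.

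Tyrp1, a melanosomal enzyme, had a single-library region of 12 fragments in HP replicate 2, 180 bp downstream of a TSS in an intron. At another Tyrp1 promoter lay a region of all 4 lists at 1.66 and 0.521 in LP against 1.22 and 3.02 in HP, where the populations overlapped. Gpr143, the G protein-coupled receptor of melanosomes, had 1 of 9 fragments in HP replicate 2, and its region of all 4 lists stood at 1.83 and 1.56 in LP against 1.13 and 3.72 in HP. Neither neighbour passed the test (limma, adjusted p = 0.142 and 0.635). Of the 11 single-library regions of the 7 pigmentation genes, 6 came from HP replicate 2, 3 from LP replicate 1 and 1 from each other library. Of all single-library promoter regions, 33.7% came from HP replicate 2, 13.8% from LP replicate 1, 31.4% from LP replicate 2 and 21.1% from HP replicate 1. By gene HP replicate 2 marked 5 of the 36 (13.9%), against 8.71% of all genes. With so few regions the split was not tested.

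Of the 30 proliferation genes 5 (16.7%, against 23.1% of all genes) had a single-library region, and all 30 had a region of all 4 lists. Cdk1, the mitotic kinase, had 1 of 6 fragments in HP replicate 1 and 1 of 12 in HP replicate 2. Ccna2, cyclin A2, had 1 of 9 and Bub1, a spindle checkpoint kinase, 1 of 6 in HP replicate 1. Ccne1, cyclin E1, had 1 of 8 and Mcm4, a helicase subunit of replication origins, 1 of 12 in LP replicate 1, and LP replicate 2 had none. In 5 of the 6 cases a shared region lay within 500 bp. The region of all 4 lists at the Bub1 promoter reached a scaled pileup of 1.395 and 1.56 in LP against 2.79 and 5.26 in HP. It was higher in both HP libraries than in both LP libraries. At a log2 difference of 1.37 ± 0.54 (the SE common to the named neighbours) it did not pass the test (limma, adjusted p = 0.0837). None of the other 4 neighbours passed it.

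Markers of other cell types were reached by single-library calls alone or nearly so. Of 32 such genes 12 (37.5%, against 23.1% of all genes) had a single-library region, 11 had nothing else, and none had a region of all 4 lists. LP replicate 2 called 7 (21.9%, against 8.17% of all genes): Syt1 of neurons (pileup 14), Myh6 of heart muscle (13), Kdr (17) and Tek (6) of endothelium, Rbfox3 of neurons (11), Pdgfra of fibroblasts (13) and Epcam of epithelium (10). LP replicate 1 called Cdh1 (13) and Pdgfra (8), HP replicate 1 Ckm (12), Pecam1 (8) and Pdgfra (8), and HP replicate 2 Col1a1 (10) and 1 further gene. Pdgfra was the only one of them with a region of 2 or more lists.

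Gene families split by library. Chemosensory receptor genes, which encode odorant, vomeronasal and taste receptors and lie in large AT-rich clusters, held 75 single-library regions of LP replicate 1, 9.05% of its total, against 32, 31 and 24 in the other libraries. By gene this was 72 of 1514 (4.76%) in LP replicate 1, against 3.75% of all genes, and 2.05%, 2.05% and 1.52% in the others, under the share of all genes there. The regions in LP replicate 1 had 5 to 15 fragments with a median of 6 and a median G and C of 39.8%, and 63 of the 75 had no other promoter region at the gene. The strongest was at Olfr370 (pileup 15, fold enrichment 7.61), and Olfr1177-ps and Olfr543 (both 11, 6.96) came next.

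Developmental transcription factors of the Pax, Sox, Fox, Gata, Nkx, Dlx and related families, a list drawn up after the regions had been seen, went to LP replicate 2. It marked 32 of 165 (19.4%), against 8.17% of all genes, and the others marked 4, 2 and 10. Of its 37 regions at these genes 30 had no shared promoter region at the gene, and the median G and C was 65.2%. Pileups ran from 8 to 20, with Pax4 (20) and Dlx5 (20), regulators of islet and limb development, the highest, Nkx6-1 (16 and 15), Pax7 (14) and 2 regions at Pax6 (14 and 12). The Hox genes, which set position along the body axis, had 10 of 39 (25.6%) in LP replicate 2 and 0 for the other LP library. In HP they had 3 (7.69%, against 5.68% of all genes) and 4 (10.3%, against 8.71%). Hoxa6 (28), Hoxa9 (25) and Hoxb6 (25) were the highest. These are values of 1 library, and LP replicate 1 did not share them.

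Keratins and keratin-associated proteins, the structural proteins of epithelia and hair, had single-library regions at 11 of 110 genes (10.0%) in LP replicate 2, near the 8.17% of all genes, and at 1, 1 and 2 in the others. All 11 regions stood at genes with no other promoter region, with pileups of 10 to 30, and 8 of the 11 genes lay within the keratin-associated cluster on chromosome 11, among them Krtap9-3 (30), Krtap4-2 (23) and Krtap4-9 (18). Genes of 1 keratin-associated subfamily are similar in sequence, so a read may map to several of them, which was not measured.

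Housekeeping families differed by library. Proteasome subunits had single-library regions at 8 of 39 genes (20.5%) in HP replicate 2, against 8.71% of all genes, and at 2, 1 and 1 in the others. In HP replicate 2 these 9 regions had 6 to 19 fragments, and 6 lay within 500 bp of a shared region, as at Psmc4 (15 and 10), Psmc1 (14) and Psma6 (14), while Psma2 (19) lay 810 bp away. Mitochondrial ribosomal proteins had 7 of 75 (9.33%) in HP replicate 1, against 5.68% of all genes, and 0, 2 and 2 in the others. All 7 of these regions lay within 409 bp of a shared region and at genes with one of all 4 lists, with Mrpl33 (12) the highest. Cytosolic ribosomal proteins had 8 of 83 (9.64%) in HP replicate 2, near the 8.71% of all genes, and 2, 3 and 3 elsewhere.

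Histone genes, compact and intronless, were marked at 11 of 70 (15.7%, against 8.71% of all genes) in HP replicate 2, by 7 regions, since several face each other across 1 promoter, and at 2, 1 and 1 in the others. Hist1h4k (32), the region at Hist1h2ap, Hist1h2br and Hist1h4n (19) and Hist1h1b (14) had no other region. Histone genes of the same class are similar in sequence, so the reads behind these values may be split among them, which was not measured. Solute carriers, the membrane transporters, had single-library regions at 26.4% of 371 genes over all libraries, Zfp zinc finger genes at 24.3% of 424, protocadherins at 27.9% of 68 and defensins at 10.9% of 64, beside 23.1% of all genes.

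**Figure D5:**
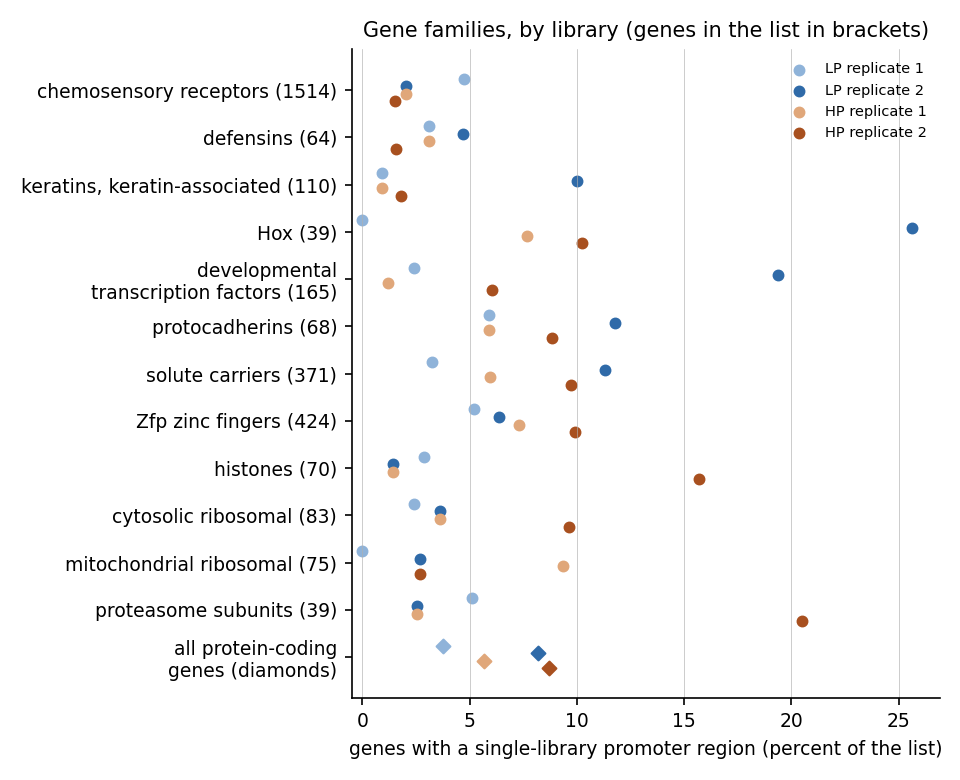
Percent of the genes of each family with a single-library promoter region, by library (dots), and the same over all protein-coding genes (diamonds). The number of genes in a family stands in brackets. LP replicate 2 is at 25.6% of Hox genes and 19.4% of developmental transcription factors, HP replicate 2 at 20.5% of proteasome subunits and 15.7% of histones, and LP replicate 1 at 4.76% of chemosensory receptors.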

How the data were processed

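H3K27ac ChIP-seq libraries of LP and HP cells, 2 replicates each, were analysed. Per the labels, reads were trimmed (Trimmomatic 0.33) and aligned to mm10 (Bowtie2 2.5.1). The authors called peaks per library with MACS 3.0.0b1 against IgG of the same replicate number (8701778 and 19358733 fragments), keeping duplicates, at a q-value of 0.05. The deposited pileup is a count of fragments at the summit, not scaled for depth. The fold enrichment, a ratio to local background, and the −log10 q-value are the authors' values.

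Pileups were divided by the fragments of the library, per 1000000. Promoters were 1 kb on either side of TSSs of protein-coding transcripts (GENCODE M21). limma 3.58.1 (R 4.3.3) used Benjamini-Hochberg adjustment, and its SE was the same at every neighbouring region named. Replicates pair by their set (equal DNA, own IgG), although their differences correlated at 0.0153 over regions. Merging and limma were tested on simulated data. Named genes were the 5 strongest per library, the highest and lowest pileups, the pigmentation and proliferation genes, and the 10 genes marked in most libraries. Family examples fall outside this rule and were chosen after their values were seen. The regions and gene lists were chosen with earlier results of these data known. Alternatives were other q-values, list sizes, merging, windows, transcripts, chromosomes, scalings and left-out libraries. Tables were handled in pandas 2.3.3 and numpy 2.4.6 under Python 3.11.15, Wilson intervals used scipy 1.17.1, and plots matplotlib 3.10.9.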

Additional observations from a re-analysis of the deposited data

How the results depend on the processing

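The number of single-library promoter regions was 5238 and 4052 at q-values of at most 0.01 and 0.001, and 5346 with lists of equal size. It was 3622 with peaks within 500 bp merged, 3493 in a 500 bp window, 15636 in a 3 kb window and 9847 with all transcripts. The share at genes with a promoter region of 2 or more lists, 58.4% over all libraries, was 40.6%, 46.6%, 71.2% and 71.0% at these 4 settings, and the causes of the size of these moves were not tested. Counted only within the window of the same TSS, an alternative chosen after seeing the data, it was 36.0%. HP stayed above LP in this share in all 17 alternatives, by 8.29 to 31.5 percentage points without a replicate or library. The log2 ratio of counts, HP to LP, kept its sign in 15 of 17 alternatives, among them the replicate block (0.36). One of these 15, the 500 bp window, left almost no difference (0.0074). The ratio became −0.37 with peaks within 500 bp merged. Without a replicate or library it ranged from −0.14 to 2.02, the number from 4858 to 6503 and the share from 53.7% to 64.0%. Without the repeat-masked and mitochondrial regions, an alternative chosen after seeing the data, the number was 5212, the log2 ratio 0.19 and the share 55.5%. The count of regions called higher in HP, 485, was 88 with the replicate block, 0 with centring, mean summit pileups or quantile normalization, 3 with at least 10 fragments in every library, and 0 to 6930 when a library was left out. At a median of 7 to 12 fragments, a missing call does not show a missing mark.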

Other observations

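Some regions fall outside the groups described. Scrt2, a neural zinc finger repressor, had the highest −log10 q-value of LP replicate 1 outside the chromosome 9 cluster, with a pileup of 32, a fold enrichment of 14.2 and 83.6% G and C, and LP replicate 2 called a separate region there with 15 fragments. Duxf3, a gene of a multi-copy array, had 68 fragments in LP replicate 2 at a fold enrichment of 1.92. Rps19 had 26 fragments in HP replicate 2, and Rpl36a had 3 single-library regions there, with 18, 14 and 9 fragments. These were chosen after their values were seen.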
